A study of Homo sapiens with 7 samples.

Results

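Human chromosome 19 carries the densest set of zinc finger genes in the genome, and 214 of the 24662 named genes measured here belong to it by the rule used: a probe on chromosome 19 whose gene name on the array is ZNF followed only by digits. These 214 genes were read by 451 probes of 60 bases on the larger array design, with a median of 2 and at most 14 probes per gene, and by 254 probes on the smaller one, which reached 163 of them. They lay on both arms, 74 on the short arm and 140 on the long arm. Genes less than 500 kb apart were joined, which gave 11 clusters of 4 or more genes holding 205 genes, and 9 genes that stood alone. The other 1209 named genes of chromosome 19 served as the comparison.

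Most zinc finger genes of this chromosome encode proteins with a KRAB domain, which binds the corepressor TRIM28, and an array of C2H2 fingers that reads DNA. TRIM28 brings the methyltransferase SETDB1 and heterochromatin proteins, and many KRAB zinc finger proteins are known to silence transposable elements. The genes arose by tandem duplication, and their bodies are known to carry heterochromatin marks in many cell types. Gene-rich, active chromatin as a rule replicates early in S phase and heterochromatin late.

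Replication timing was measured in 2 established lines, K562 (chronic myeloid leukaemia cells) and U2OS (osteosarcoma cells). Per the labels, all cells took up BrdU, a thymidine analogue, at 50 µM for 2 h and 80000 cells were sorted by DNA content into 2 fractions of S phase, early and late; the nascent DNA of each was recovered with an antibody, amplified over the whole genome and labelled, the early fraction with Cy3 and the late one with Cy5. K562 was hybridised on 3 arrays, of which 2 were of the larger design, titled with a new and with the old cell sorting method, and the third is titled 44k. U2OS was hybridised on 4 arrays of the larger design, of which 2 are titled manual and 2 automated. The labels give no other treatment, do not say which step was automated, and do not say whether arrays of a line came from separate cultures, so the errors cover the spread between these arrays. The arrays lay on 6 slides, none of which held both lines, so that line and slide cannot be told apart. As a check of the line labels, the signal at CDKN2A, a gene deleted in K562, was taken as the log2 geometric mean of both channels. Relative to the array's median it was -2.67 to -1.34 log2 units in K562 and -1.08 to -0.52 in U2OS.

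Timing is given as log2(early/late), each array centred on its median probe: values above 0 are earlier and values below 0 later than that probe, and a step of 1 is a factor of 2 in the ratio. A gene was called late or early in a line where limma's adjusted p against 0 was under 0.05, and different between lines where the adjusted p was under 0.05 and the difference was at least 1. Spots were not equally bright. The late channel was well above background for 8.65% of the ZNF gene spots on the K562 44k array. On the other arrays it was so for 32.5% to 94.8%. A ratio that the scanner software had set to 0 was carried by 13.2% of them on the K562 44k array, against 0 to 6.54% elsewhere. On the 44k array such a ratio became -0.46 after centring and is not a measurement. For 15 ZNF genes the value on that array came only from such ratios.

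The values rest on short windows of the genes, with a single probe on the larger design for 76 of the 214. The probes of ZNF432 and ZNF749, which showed the largest differences in the 2 directions, and of ZNF570, among the latest genes in both lines, are given for the extremes of the set (hg19, as the array design gives them, 5′ to 3′, CpG dinucleotides in capitals). Each is the only probe of its gene, and the exon or intron it lies in was not analysed here.
ZNF432, chr19:52540459-52540518: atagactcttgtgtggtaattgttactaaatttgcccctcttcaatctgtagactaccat
ZNF749, chr19:57953579-57953638: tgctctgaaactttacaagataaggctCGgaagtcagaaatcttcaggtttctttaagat
ZNF570, chr19:37965013-37965072: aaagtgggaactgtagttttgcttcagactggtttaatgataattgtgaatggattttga
Their GC content was 33.3% to 36.7%, and only the ZNF749 probe held a CpG. None of the 451 probes of the ZNF genes shared a run of 25 bases with another probe, although the genes are paralogues. Over the 214 genes the probe GC content had a median of 36.6%, against 37.9% over the other genes of the chromosome.

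The ZNF genes replicated later than the rest of chromosome 19 on all 7 arrays, by an amount that differed between arrays. In K562 the median of the ZNF genes lay 0.87 below that of the other genes on the new sorting array, 0.18 below on the old sorting array and 0.40 below on the 44k array, a mean of -0.49 ± 0.35 (SD, n = 3). In U2OS it lay 1.01 and 0.78 below on the manual arrays and 1.25 and 1.36 below on the automated arrays, a mean of -1.10 ± 0.26 (SD, n = 4). The nearest arrays of the lines were 0.87 and 0.78 below, so the lines overlapped. The median of the ZNF genes itself was 0.08 ± 0.16 in K562 and -0.26 ± 0.07 in U2OS, beside 0.56 ± 0.24 and 0.85 ± 0.22 for the rest of the chromosome. Values of the ZNF genes were also more spread: their SD over genes was 1.02 to 1.47 on the 7 arrays, against 0.72 to 0.99 for the rest.

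**Figure D1:**
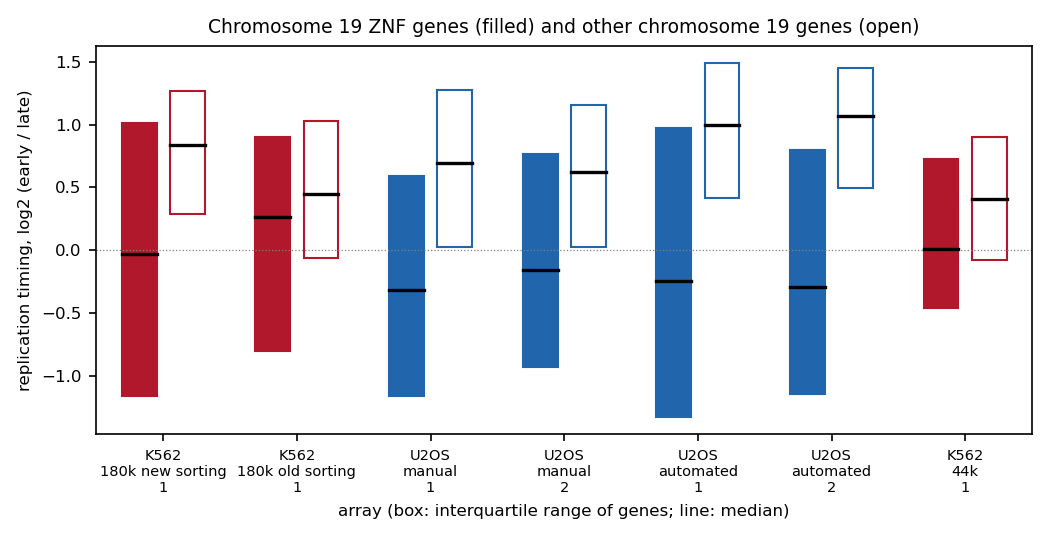
Replication timing, as log2(early/late), of the ZNF genes (filled boxes) and the other named genes of chromosome 19 (open boxes) on each of the 7 arrays. A box spans the interquartile range of the genes and the black line is the median. The K562 44k array holds 163 of the 214 ZNF genes and 791 of the other genes. Its lower ZNF box edge, -0.46, is the value of a ratio set to 0 by the software. The ZNF median is below the median of the other genes on every array, by 0.18 to 1.36, and the ZNF boxes are the longer ones.

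Late calls were frequent among the ZNF genes in both lines. In K562, 59 of 214 (27.6%) were called late, against 19.9% of all named genes and 4.63% of the other genes of chromosome 19, and 64 (29.9%) were called early, against 43.8% and 36.1%. In U2OS, 85 (39.7%) were called late, against 20.1% of all genes and 6.20% of the rest of the chromosome, and 56 (26.2%) were called early, against 55.3% and 64.1%. Without the K562 new sorting array the K562 counts were 28 late and 37 early. Of the 214 genes, 38 were called late in both lines and 36 early in both. A further 13 were called early in K562 and late in U2OS, and 2, ZNF317 and ZNF749, the reverse. The centring sets where 0 lies: with each array centred on the other chromosome 19 genes, 128 ZNF genes were called late in U2OS and 9 early, and 10 were called early in K562.

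Between the lines, 29 ZNF genes (13.6%) were called earlier in K562, against 6.01% of all named genes, and 10 (4.67%) later in K562, against 7.14%. On the rest of chromosome 19 these shares were 2.23% and 1.99%, and among the 236 ZNF genes of the same name form on other chromosomes they were 12.3% and 5.93%. The K562 values were 3, or 2 for genes with no value on the 44k array. They lay apart from the 4 U2OS values in 28 of the 29 genes, with ZNF14 the exception, and in all 10 later genes. Over all 214 genes, 31.3% did not overlap, against 28.6% of all named genes. The counts were sensitive to single arrays. They were 19 and 4 without the K562 new sorting array, 18 and 9 without the old sorting array, 19 and 6 without the 44k array, 19 and 6 without U2OS automated 1, and 16 and 5 without U2OS automated 2. With normexp background correction in place of the deposited ratio they were 12 and 10. Centred on the other chromosome 19 genes they were 31 and 2, and the earlier share of all called genes of the genome moved from 45.7% to 61.3%.

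**Figure D2:**
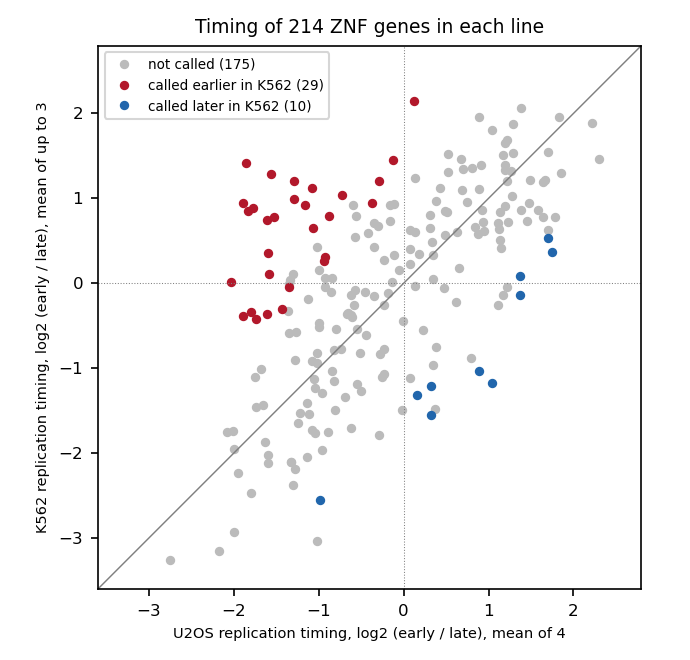
Mean timing of each of the 214 ZNF genes in U2OS (x axis, 4 arrays) and K562 (y axis, up to 3 arrays), as log2(early/late), with the line of equal timing. The 29 genes called earlier in K562 lie above the line and the 10 called later below it; Pearson's r across the genes was 0.59.

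The 29 earlier genes were not spread evenly along the chromosome: 18 lay in the cluster from ZNF175 to ZNF331, 5 in the cluster from ZNF628 to ZNF71, 3 in that from ZNF101 to ZNF99, 2 in that from ZNF653 to ZNF791 and 1 in that from ZNF181 to ZNF792. Of the 10 later genes, 4 lay in the cluster from ZNF576 to ZNF180, 4 in that from ZNF264 to ZNF324, and 1 each in those from ZNF414 to ZNF812 and from ZNF101 to ZNF99. In the plot of cluster means by array, the K562 and U2OS arrays did not overlap for 4 of the 11 clusters: those that begin with ZNF181, ZNF576, ZNF175 and ZNF628. Across ZNF genes the timing of the 2 lines had Pearson's r of 0.59 and Spearman's rho of 0.57, beside 0.60 and 0.51 across the rest of the chromosome; genes of a cluster share their surroundings and are not independent.

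**Figure D3:**
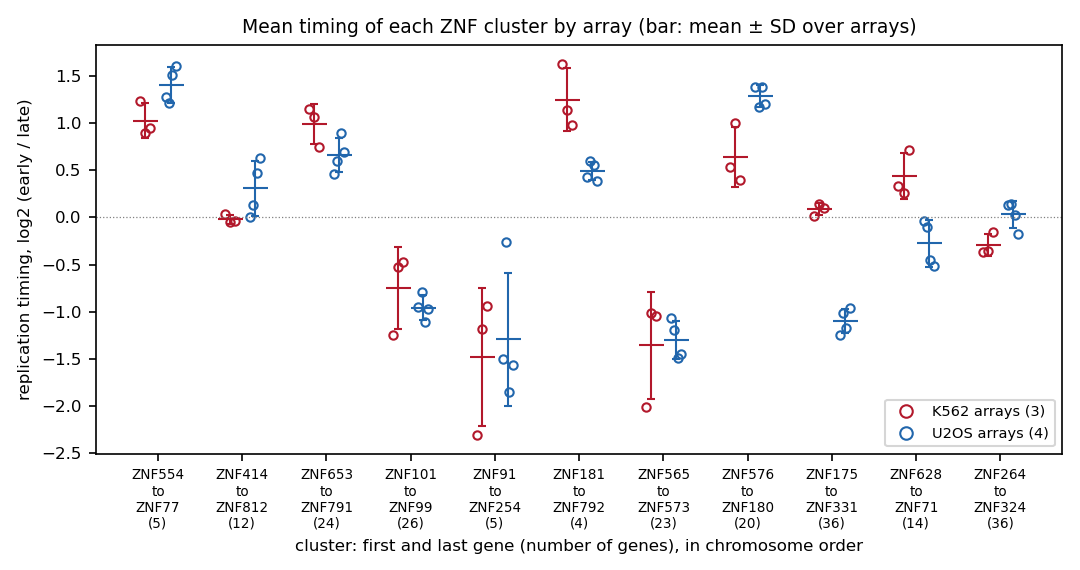
Mean timing, as log2(early/late), of the genes of each ZNF cluster on each array (circles; K562 red, U2OS blue), in chromosome order, with bars for the mean ± SD over the arrays of a line. The ZNF175 to ZNF331 cluster sits near 0 on all 3 K562 arrays (0.02 to 0.14) and at -1.25 to -0.97 on all 4 U2OS arrays.

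The cluster from ZNF175 to ZNF331, 36 genes over 2003 kb (hg19 chr19:52076789-54080164), held 18 of the 29 genes called earlier in K562. Its mean was 0.02, 0.14 and 0.10 on the K562 new sorting, old sorting and 44k arrays and -1.25, -1.01, -1.17 and -0.97 on U2OS manual 1, manual 2, automated 1 and automated 2. All K562 arrays were thus above all U2OS arrays, by 1.19 on average. Set against the other genes of the chromosome, the percentiles of its genes averaged 34.9 in K562 and 6.67 in U2OS. The difference kept its sign and the groups stayed apart in each of 21 other settings, with values from 0.52 to 1.48. Leaving out 1 array gave 11 to 15 such genes, the lowest without the K562 new sorting array, normexp correction and loess gave 8 each, no background correction gave 6 and dropping dim probes gave 3. In U2OS 27 of the 36 genes were called late and none early, and in K562 5 were called late and 9 early.

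The difference was graded along this cluster. The stretches used here were chosen after the values were seen. In the first 12 genes, ZNF175 to ZNF480, the mean was 0.80, 0.95 and 0.46 in K562 and -1.45, -1.28, -1.85 and -1.57 in U2OS, and all 12 genes were called earlier in K562, by 1.13 to 3.28. In the next 14, ZNF610 to ZNF160, the mean difference was 1.24 and 6 were called. In the last 10, ZNF415 to ZNF331, it was -0.17, 5 genes had a positive and 5 a negative difference, and none was called. K562 fell from 0.74 ± 0.25 over 0.21 ± 0.23 to -0.83 ± 0.10 (SD, n = 3) from the first stretch to the last, while U2OS went from -1.54 ± 0.24 over -1.03 ± 0.19 to -0.67 ± 0.25 (SD, n = 4). Probes in the same bounds whose name is not ZNF followed only by digits gave the same picture. The 45 in the first stretch differed by 2.02 between lines, the 24 in the second by 0.98 and the 15 in the last by 0.02. Zinc finger genes with other name forms were not removed from these probes.

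**Figure D4:**
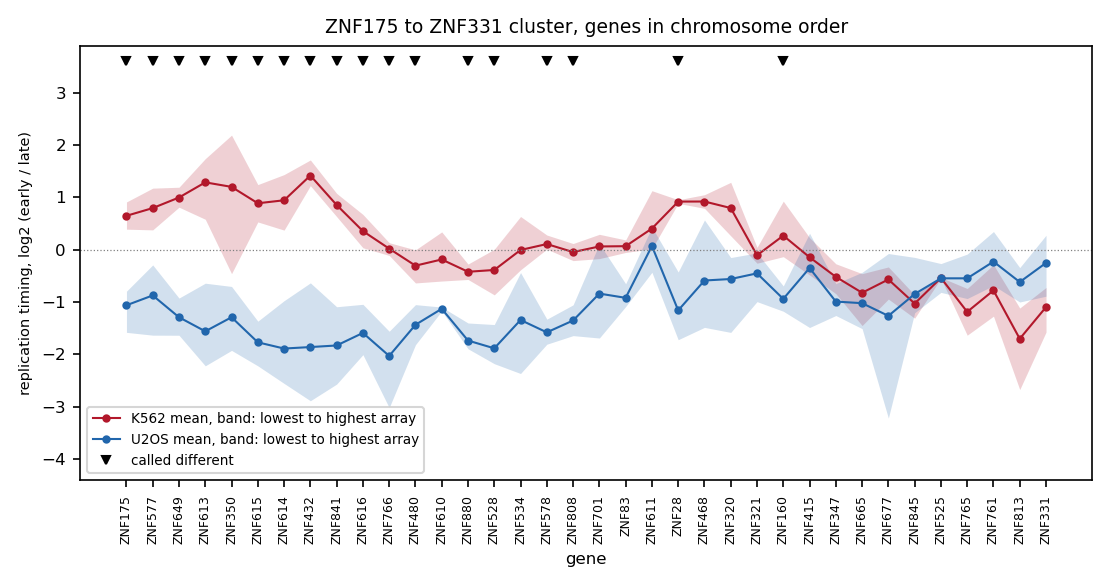
Timing, as log2(early/late), of the 36 genes from ZNF175 to ZNF331 in chromosome order (x axis, one tick per gene); lines are the mean of the K562 (red) and U2OS (blue) arrays, bands run from the lowest to the highest array, and triangles mark the 18 genes called different. The first 12 genes are all marked, and the lines meet among the last 10.

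ZNF432 had the largest difference of all ZNF genes. Its values were 1.22, 1.31 and 1.71 on the K562 new sorting, old sorting and 44k arrays and -0.63, -1.50, -2.89 and -2.42 on the U2OS manual 1, manual 2, automated 1 and automated 2 arrays. Every K562 array was above 0 and every U2OS array below it, with a difference of 3.28 (SE 0.50, adjusted p = 0.00265, limma). Within U2OS its automated arrays were the lower pair.
ZNF613, which lies ahead of it, read 1.74, 1.54 and 0.58 in K562 and -0.64, -1.24, -2.14 and -2.22 in U2OS, a difference of 2.85 (SE 0.46, adjusted p = 0.00341). Its late channel was not well above background on any K562 array, so that the K562 value is uncertain. ZNF614 read 1.02, 1.43 and 0.37 against -2.00, -0.98, -2.56 and -2.02, a difference of 2.83 (SE 0.42, adjusted p = 0.00238). Both genes, like ZNF432, kept apart the K562 and U2OS arrays.
ZNF841 and ZNF615 have no probe with a value on the 44k array and were fitted on 6 arrays. ZNF841 read 0.63 and 1.07 in K562 and -2.57, -1.09, -1.79 and -1.87 in U2OS (difference 2.68, adjusted p = 0.00498). ZNF615 read 0.53 and 1.24 against -1.70, -1.80, -2.22 and -1.37 (difference 2.66, adjusted p = 0.00288). The K562 values of both were above 0 and the U2OS values below -1.
ZNF649, a KRAB repressor, read 1.19, 0.81 and 0.98 in K562 and -1.002, -0.93, -1.60 and -1.64 in U2OS, a difference of 2.29 (SE 0.32, adjusted p = 0.00173).

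ZNF350, also known as ZBRK1 and a partner of BRCA1, shows the limit set by dim spots. It read 1.87 and 2.19 on the larger K562 arrays and -0.46 on the 44k array, where its ratio was one set by the software, against -1.92, -0.70, -1.08 and -1.46 in U2OS. The difference was 2.49 (SE 0.60, adjusted p = 0.0218), the K562 late channel was not well above background on any array, and the call was lost without the K562 new sorting array, without the old sorting array, without U2OS manual 1 or without U2OS automated 2, and with no background correction, where the difference was 0.86 (adjusted p = 0.105). By contrast ZNF432, ZNF613, ZNF614, ZNF841, ZNF615 and ZNF649 were called in each of the 20 other settings in which they were tested. Dropping dim probes was not among these settings for ZNF613, whose late channel was also not well above background on any K562 array.

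Further along the cluster, ZNF808, whose protein silences a family of endogenous retroviral elements, was called earlier in K562 by 1.31 (adjusted p = 0.0372): it read -0.21 and 0.12 in K562 and -1.64, -1.32, -1.40 and -1.05 in U2OS. That call was lost without any 1 of the 6 arrays that measure it, and with normexp correction (adjusted p = 0.245), no background correction (0.294), loess (0.0789) or dim probes dropped (0.261). ZNF534 read -0.27, -0.38 and 0.63 against -2.37, -0.44, -1.38 and -1.19 and did not pass (difference 1.34, adjusted p = 0.0899). ZNF611 differed by 0.33 (adjusted p = 0.628), with overlapping arrays.
At the far end ZNF331, a gene known for imprinted expression, read -1.58, -0.72 and -0.99 in K562, where it was called late, and 0.27, -0.89, -0.06 and -0.34 in U2OS; the difference of -0.84 did not pass (adjusted p = 0.172). In the plot of this cluster it is the last gene, and its sign is the reverse of that of the first 12.

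The cluster from ZNF628 to ZNF71, 14 genes over 1146 kb, was also earlier in K562, at 0.34, 0.26 and 0.72 against -0.04, -0.10, -0.45 and -0.52, by 0.72 on average. The arrays of the lines overlapped with normexp correction, with no background correction and with dim probes dropped. The cluster was divided here between its 7th and 8th gene, a place chosen after the values were seen. Its widest gap, 456 kb, lay elsewhere, between ZNF581 and ZNF787. The first 7 genes, ZNF628 to ZNF444, were at 0.64 ± 0.16 in K562 and 0.80 ± 0.15 in U2OS and none was called different. The last 7, ZNF542 to ZNF71, were at 0.07, 0.02 and 0.66 in K562 and -0.68, -0.95, -1.86 and -1.91 in U2OS; all 7 were called late in U2OS, and 5 (ZNF582, ZNF583, ZNF667, ZNF471 and ZNF470) were called earlier in K562. Both automated arrays were below both manual arrays in this stretch.
ZNF667 read 0.49, 0.66 and 1.18 in K562 and -0.61, -1.44, -2.13 and -1.93 in U2OS, a difference of 2.30 (SE 0.41, adjusted p = 0.00512, limma). Its call was lost when only probes on both array designs were kept (adjusted p = 0.0854).
In the first stretch, ZNF581 was among the 5 earliest ZNF genes of all, at 2.48, 1.44 and 1.72 in K562 and 2.98, 2.35, 1.35 and 2.21 in U2OS. ZNF580, its close neighbour, read -0.65, -1.48 and 0.47 in K562 and -0.01, 0.03, 0.36 and 0.53 in U2OS and was called neither early nor late in either line. Each rests on 1 probe. ZNF444, which carries a SCAN domain, was early in both lines, at 1.32 and 1.33 in K562 and 1.34, 1.44, 1.37 and 0.89 in U2OS.

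The cluster from ZNF576 to ZNF180, 20 genes over 901 kb, went the other way. Its mean was 0.53, 1.001 and 0.40 in K562 and 1.39, 1.17, 1.39 and 1.21 in U2OS, a difference of -0.65 with no overlap between arrays. It was early in both lines: no gene was called late in either, 9 were called early in K562 and 17 in U2OS. The 5 genes at the start (ZNF576 to ZNF45) and the last 2 (ZNF229 and ZNF180) differed by -0.01 and 0.16. The 13 genes between them, ZNF221 to ZNF235, all had a negative difference, from -1.67 to -0.30, and held the 4 calls: ZNF223, ZNF224, ZNF225 and ZNF234. In 6 settings, among them centring on the other chromosome 19 genes, no background correction and dim probes dropped, the arrays of the 2 lines overlapped for this cluster.
ZNF224, a KRAB repressor first described at the aldolase A gene, read 0.17, 0.20 and 0.75 in K562 and 1.65, 1.42, 2.41 and 1.53 in U2OS, a difference of -1.38 (SE 0.34, adjusted p = 0.0253). ZNF225 read -0.45, 0.33 and -0.30 against 1.73, 0.77, 1.38 and 1.61, a difference of -1.51 (SE 0.35, adjusted p = 0.0180). Every U2OS array was above every K562 array for both. Both calls were lost without the K562 new sorting array and without U2OS automated 2, that of ZNF224 also without the old sorting array or U2OS automated 1, and that of ZNF225 also without the 44k array. Both were lost as well with no background correction, with loess, when centred on the other chromosome 19 genes and with probes on both designs only, that of ZNF224 also with normexp correction (highest adjusted p 0.30) and that of ZNF225 with dim probes dropped (highest adjusted p 0.198). ZNF180, at the end of the cluster, was among the 5 earliest genes in both lines, at 2.29, 2.30 and 1.27 in K562, where its late channel was not well above background on any array, and 1.92, 1.93, 1.99 and 1.50 in U2OS.

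The cluster from ZNF264 to ZNF324, 36 genes over 1280 kb near the end of the long arm, had nearly the same mean in both lines, -0.29 ± 0.12 in K562 and 0.03 ± 0.15 in U2OS, with overlapping arrays, but its stretches differed in opposite directions. In the first 14 genes, ZNF264 to ZNF134, the mean was -1.26, -1.58 and -0.71 in K562 and 0.41, 0.42, -0.29 and -0.41 in U2OS. All 14 were called late in K562, 1 was called late and 1 early in U2OS, and all 14 differences were negative, from -2.22 to -0.31. In the next 15, ZNF211 to ZNF274, K562 was higher by 0.52 and 12 of 15 differences were positive, with no call. In the last 7, ZNF544 to ZNF324, the difference was -0.34 and all 7 were negative, with no call. The 14 probes of other names in the first stretch differed by -1.15, with no overlap between the arrays of the lines. The 26 in the second differed by 0.47 and the 8 in the last by -0.03, and in both the arrays overlapped.
ZNF749 had the largest negative difference of all ZNF genes: -1.21 and -1.14 on the 2 larger K562 arrays, with no probe on the 44k array, and 1.75, 0.99, 0.98 and 0.46 in U2OS, a difference of -2.22 (SE 0.41, adjusted p = 0.00806, limma). The K562 arrays were all below 0 and the U2OS arrays all above. ZNF805 read -1.85, -1.82 and -0.98 against 0.96, 0.59, -0.30 and 0.02 (difference -1.87, adjusted p = 0.0116), ZNF304, a KRAB protein linked to silencing in colorectal cancer, read -0.84, -1.73 and -1.07 against 0.15, 1.11, -0.07 and 0.10 (difference -1.54, adjusted p = 0.0247), and ZNF264 read -1.24, -2.13 and -0.58 against 0.25, 0.52, 0.08 and -0.22 (difference -1.47, adjusted p = 0.0350). Over these 3 genes the U2OS values ran from -0.30 to 1.11 and the K562 values from -2.13 to -0.58.
The call of ZNF264 was lost without any 1 of the 6 arrays of the larger design, and that of ZNF304 without the K562 old sorting array, the 44k array or U2OS automated 2. ZNF805 and ZNF749 kept theirs whichever array was left out, but that of ZNF749 was lost with no background correction (adjusted p = 0.106) and with loess (0.0669), and that of ZNF805 when centred on the other chromosome 19 genes (0.062). The call of ZNF264 was also lost with no background correction, with loess, with that centring and with probes on both designs only, and that of ZNF304 with no background correction and with that centring.
ZNF274, whose protein is known to bind the 3′ ends of other zinc finger genes and to bring SETDB1 there, lay at the end of the second stretch. It read 2.01, 1.49 and 0.45 in K562, where it was called early and its late channel was not well above background on any array, and 0.56, 0.92, 0.51 and 0.12 in U2OS, where it was not called; the difference of 0.79 did not pass (adjusted p = 0.248).

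**Figure D5:**
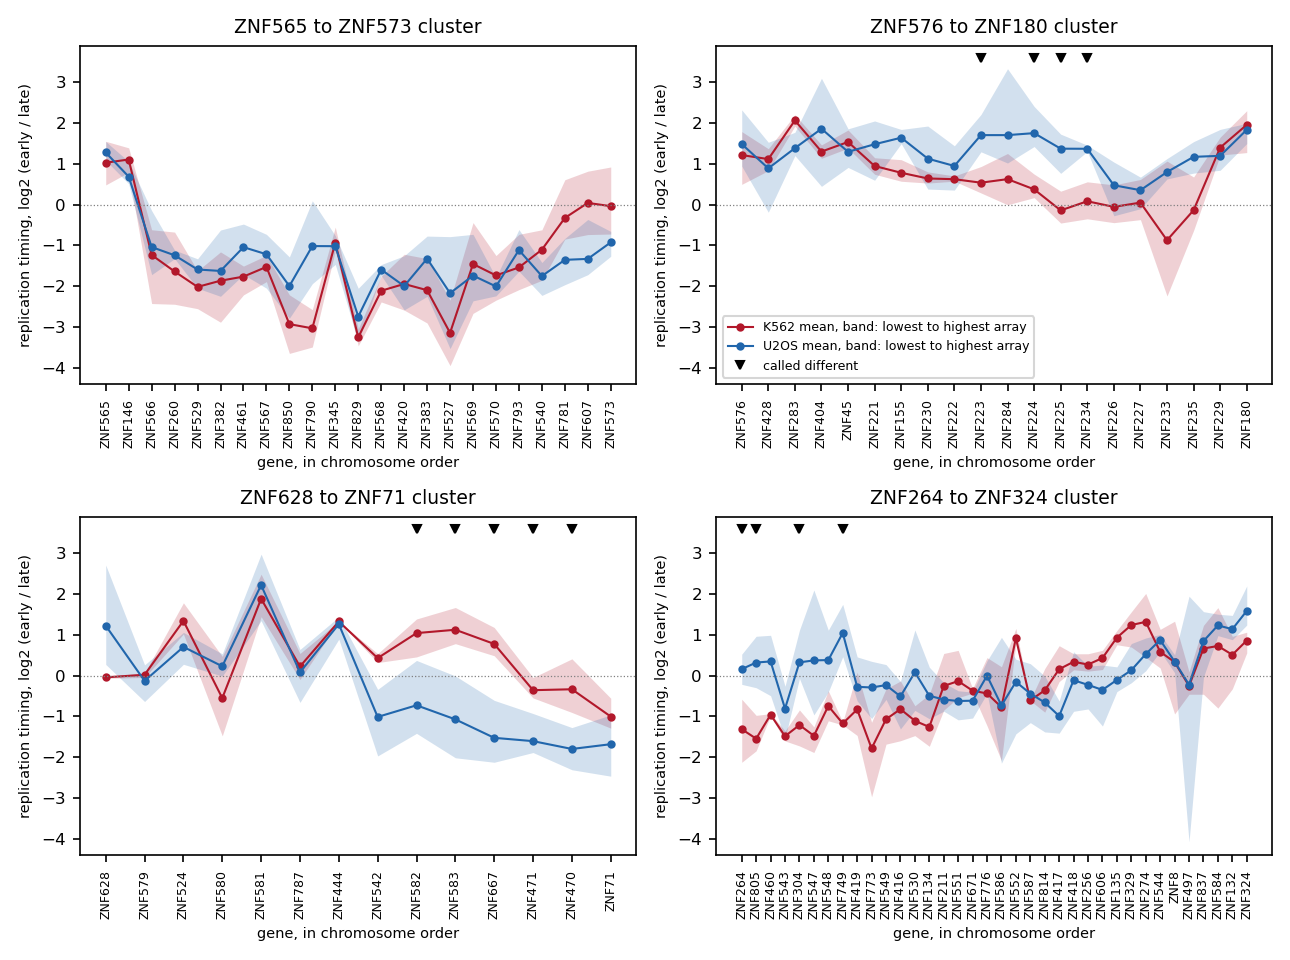
Timing, as log2(early/late), of the genes of 4 clusters in chromosome order (x axes), drawn as means over the K562 (red) and U2OS (blue) arrays with bands from the lowest to the highest array; triangles mark genes called different. From ZNF566 to ZNF540, the ZNF565 to ZNF573 cluster is late in both lines, the 13 middle genes of the ZNF576 to ZNF180 cluster are later in K562, the last 7 genes of the ZNF628 to ZNF71 cluster are later in U2OS, and the first 14 genes of the ZNF264 to ZNF324 cluster are later in K562.

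The cluster from ZNF565 to ZNF573, 23 genes over 1590 kb, was late in both lines and had no gene called different. Its mean was -2.01, -1.01 and -1.04 in K562 and -1.07, -1.19, -1.49 and -1.46 in U2OS. The first 2 genes, ZNF565 and ZNF146, were early in both lines, at 1.06 ± 0.22 in K562 and 0.98 ± 0.19 in U2OS. The next 18, ZNF566 to ZNF540, were all called late in both lines, at -1.84 ± 0.65 and -1.57 ± 0.21. In the last 3, ZNF781, ZNF607 and ZNF573, all were called late in U2OS and none in K562, with differences of 0.89 to 1.37 that did not pass.
ZNF146, whose protein is made of fingers with no KRAB domain, read 1.39, 0.79 and 1.13 in K562 and 0.62, 0.51, 0.55 and 1.05 in U2OS. ZNF382, a KRAB repressor, read -2.89, -1.56 and -1.16 against -2.12, -2.25, -0.63 and -1.52, and ZNF420, known as APAK, -2.59, -2.04 and -1.22 against -1.59, -1.26, -2.58 and -2.56. Every array of ZNF146 was thus above every array of ZNF382 and ZNF420. ZNF570 and ZNF420 were among the 5 latest genes with a value on all 7 arrays, by the mean of the 2 lines. ZNF570 read -2.35, -1.25 and -1.62 in K562 and -2.24, -1.79, -1.96 and -2.05 in U2OS. By that mean ZNF829, ZNF527, ZNF850 and ZNF790 of this cluster, which have no 44k value, were later. For ZNF790 the early channel was not well above background on any K562 array.

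Next to the centromere on the short arm lay 2 late clusters. That from ZNF101 to ZNF99 held 26 genes over 3155 kb, with a mean of -0.75 ± 0.43 in K562 and -0.96 ± 0.13 in U2OS, and that from ZNF91 to ZNF254 held 5 genes over 752 kb, at -1.48 ± 0.73 and -1.30 ± 0.71. In the first, 13 genes were called late in K562 and 20 in U2OS. It changed along its length: the 6 genes from ZNF101 to ZNF682 were higher in K562, at 0.30, 0.98 and 0.70 against -0.89, -0.22, -0.73 and -0.64, the 4 genes from ZNF90 to ZNF626 were called late in both lines, the 10 from ZNF85 to ZNF43 were all called late in U2OS and 3 of them in K562, and the 6 from ZNF208 to ZNF99 were all called late in K562 and 3 in U2OS.
ZNF253 was the gene here with the largest difference, at 0.17, 1.50 and 0.58 in K562 and -1.69, -1.22, -1.95 and -1.55 in U2OS, by 2.35 (SE 0.37, adjusted p = 0.00305). Its neighbour ZNF93, known to repress LINE elements, read -0.33, 0.08 and about 0 in K562 and -1.15, -0.80, -0.44 and 0.10 in U2OS, with a difference of 0.49 (adjusted p = 0.424). ZNF492 went the other way, at -2.79, -2.57 and -2.30 in K562 and -1.22, -0.51, -1.16 and -1.03 in U2OS, a difference of -1.57 (SE 0.31, adjusted p = 0.00852); it was called late in both lines. The difference of ZNF492 was no longer called with no background correction (adjusted p = 0.123), when centred on the other chromosome 19 genes (0.0653) or with the median of the probes of a gene (0.0593).
ZNF91, known to repress SVA elements, read -2.21 and -1.57 on the larger K562 arrays and a set value of -0.46 on the 44k array, and -2.17, -0.11, -1.21 and -1.06 in U2OS. It was called late in both lines and its difference of -0.28 did not pass (adjusted p = 0.790). ZNF254, in the same cluster, was among the 5 latest genes, at -3.18, -2.18 and -2.04 and -2.82, -0.14, -2.17 and -2.05. U2OS manual 2 was the highest U2OS array for ZNF91 and ZNF254, and its mean for this cluster was -0.26 against -1.86 to -1.50 on the others.
ZNF675 was called late in both lines with the values of this cluster nearest 0, -0.78 in K562 and -0.82 in U2OS. The other late genes of the 2 clusters that were listed by name were ZNF486 (-1.75 in K562 and -2.08 in U2OS), ZNF257 (-2.23 and -1.95), ZNF208 (-2.11 and -1.32), ZNF43 (-0.91 and -1.08) and ZNF430 (-0.59, not called, and -1.34). For ZNF486, ZNF257 and ZNF208 the early channel was not well above background on any U2OS array, so that the U2OS values are uncertain. The 44k value of ZNF430 was one set by the software.

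The remaining clusters were early or near the array median. The cluster from ZNF653 to ZNF791, 24 genes over 1146 kb, stood at 0.99 ± 0.21 in K562 and 0.66 ± 0.18 in U2OS; 17 genes were called early in K562 and 12 in U2OS, none late, and ZNF763 and ZNF136 were called earlier in K562. ZNF763 has values on the 2 larger K562 arrays only, where its late channel was not well above background, so that its K562 value is uncertain. The cluster from ZNF554 to ZNF77, 5 genes over 110 kb, stood at 1.03 ± 0.18 and 1.41 ± 0.19, with 4 of 5 called early in each line. ZNF77 read 1.56, 0.83 and 2.002 in K562 and 1.97, 3.11, 1.72 and 2.39 in U2OS, and ZNF555 1.92, 2.30 and 0.42 and 2.43, 0.50, 1.96 and 1.91; both were among the 5 earliest, and the K562 late channel of ZNF555 was not well above background.
The cluster from ZNF181 to ZNF792, 4 genes over 215 kb, was earlier in K562, at 1.63, 1.15 and 0.98 against 0.43, 0.60, 0.56 and 0.39, with ZNF181 called (difference 1.50, adjusted p = 0.0128) and ZNF792 early in both lines (1.68 and 1.22).
The cluster from ZNF414 to ZNF812, 12 genes over 1226 kb, stood at -0.02 ± 0.05 and 0.31 ± 0.29. ZNF317 was its gene called later in K562, at -0.98, -1.77 and -0.35 against 0.03, 0.89, 1.36 and 1.28, a difference of -1.92 (SE 0.44, adjusted p = 0.0171), a call lost without the K562 new sorting array, the old sorting array or U2OS automated 2. It was also lost with normexp correction and with loess, where the difference was -0.96, under the minimum of 1, and with no background correction, where it was -0.65 (adjusted p = 0.162). ZNF558 was called neither early nor late in either line. Of the 9 genes that stood alone, ZNF536, read by 14 probes, was late in both lines, at -2.04 ± 0.67 in K562 and -1.14 ± 0.11 in U2OS.

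The 500 kb limit left the widest gap inside a cluster at 456 kb, between ZNF581 and ZNF787, and the narrowest between clusters at 570 kb, between ZNF71 and ZNF264. On the 2 sides of the latter, ZNF71 stood at -1.01 in K562 and -1.68 in U2OS and ZNF264 at -1.32 and 0.16. A limit of 250 kb gave 13 clusters of 4 or more genes and a limit of 1000 kb gave 9.

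Other genes inside the bounds of the 11 clusters were also often late. Of 171 such genes, 24.0% were called late in K562 and 33.3% in U2OS, against 1.45% and 1.73% of the 1038 named genes of the chromosome outside the bounds. Neither group had zinc finger genes with other name forms removed. Of 20 zinc finger genes of the chromosome with other name forms (ZNF with a letter, ZSCAN, ZFP and ZIM), 35.0% were late in K562 and 45.0% in U2OS. Tandem families of other kinds on the same chromosome had 0 or 1 late gene in each line. Of the 12 KIR and LILR receptor genes and the 13 KLK protease genes none was called late in either line, and of the 17 CEACAM and PSG genes none was late and 94.1% were early in U2OS. The other families had 1 late gene of 10 SIGLEC genes in U2OS, 1 of 13 CYP2 and CYP4F genes in each line (7.69%) and 1 of 5 olfactory receptor genes in K562. On other chromosomes, 33 of the 236 ZNF genes were late in K562 and 46 (19.5%) in U2OS.

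The promoters of the ZNF genes were rich in CpG in each group of calls. RefSeq promoters (GRCh38.p14, 300 bases around the start of the gene) were matched for 184 of the 214 genes, and 92.9% of these held at least 10 CG dinucleotides (the letters CG, which read the same on both strands), against 70.6% of 1689 other promoters of chromosome 19 and 56.4% of all 35116. The 23 matched genes called earlier in K562 had 9 to 42 CG with a median of 23, and the 9 called later 15 to 23 with a median of 20. Across the 184 genes the count of CG had Pearson's r of 0.13 with K562 timing and 0.06 with U2OS timing. The promoters of the 2 genes with the largest differences are shown with CG in capitals, 5′ to 3′ on the strand of the gene.
ZNF432, GRCh38.p14 chr19:52048789-52049088, minus strand: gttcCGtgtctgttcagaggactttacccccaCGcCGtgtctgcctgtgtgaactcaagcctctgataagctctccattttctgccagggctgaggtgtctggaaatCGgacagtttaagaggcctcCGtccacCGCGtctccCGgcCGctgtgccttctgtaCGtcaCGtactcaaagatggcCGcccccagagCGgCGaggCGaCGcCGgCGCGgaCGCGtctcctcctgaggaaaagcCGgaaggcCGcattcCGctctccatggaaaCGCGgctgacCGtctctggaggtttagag
ZNF749, GRCh38.p14 chr19:57435075-57435374, plus strand: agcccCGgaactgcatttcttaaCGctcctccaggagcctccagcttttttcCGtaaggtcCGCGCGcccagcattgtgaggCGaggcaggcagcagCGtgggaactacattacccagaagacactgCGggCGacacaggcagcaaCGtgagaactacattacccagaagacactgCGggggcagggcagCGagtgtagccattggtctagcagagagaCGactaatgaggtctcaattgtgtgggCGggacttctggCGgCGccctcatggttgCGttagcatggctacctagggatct
The ZNF432 promoter held 27 CG and that of ZNF749 18. GC content of the probes, as a description across the 214 genes, had Pearson's r of 0.14 with timing in K562 and 0.24 in U2OS.

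The genes for proteins that act with KRAB zinc finger proteins were described from a list of 17, of which 16 were measured. In U2OS 12 (75.0%) were called early, beside 55.3% of all named genes, and 3 late. In K562 8 (50.0%) were called early, beside 43.8%, and 1 late. Calls between the lines were 2 in each direction (12.5%), beside 6.01% and 7.14%. SMARCAD1 (difference 2.33, adjusted p = 0.00148) and ATF7IP (2.07, adjusted p = 0.00373) were called earlier in K562, and TRIM28, which lies on chromosome 19 itself (-1.53, adjusted p = 0.0162), and DNMT1 (-1.18, adjusted p = 0.0301) later. SETDB1 was early in both, at 1.15 in K562 and 1.50 in U2OS.

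No ZNF gene passed the test between the handling groups of U2OS. Between the 2 automated and the 2 manual arrays, 0 ZNF genes were called earlier and 0 later (limma, adjusted p under 0.05), as 0.00% of all named genes were; at an unadjusted p under 0.05 there were 48 ZNF genes (22.4%), against 19.3% of all genes, and the smallest adjusted p was 0.148. With normexp correction in place of the deposited ratio, 34 ZNF genes were called later and 25 earlier on the automated arrays, together 27.6% of them beside 35.2% of all named genes. The clusters with the largest mean shift were ZNF91 to ZNF254, at -0.83, where manual 2 stood apart, ZNF414 to ZNF812, at 0.48, and ZNF628 to ZNF71, at -0.42.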

How the data were processed

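Per the file headers, the authors' deposited tables came from Agilent Feature Extraction 11.5.1.1 under a CGH protocol (the submitters' processing notes name 9.1), on build hg19. The deposited log10 ratio (late over early) is background-subtracted and dye-normalized, per the file headers, and the deposited intensity columns are mean spot signals and local background, used only in alternatives. Dyes were the same on all arrays. Here the log10 ratio was turned to log2(early/late), control spots and spots flagged as outliers were dropped, arrays were centred on the median probe of chromosomes 1 to 22 and X, and probes were averaged per gene. limma 3.58.1 in R 4.3.3 fitted gene means on 7 arrays with 1 term per line, Benjamini-Hochberg adjusted over 24662 genes; genes with no value on the 44k array (51 ZNF genes) used 6. The U2OS handling fit used 4 arrays; its replicate numbers are not said to pair arrays. The fit was tested on simulated data.

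The genes, lists and tests were chosen with earlier results of these data known. Genes were named by rule: up to 8 per direction with the largest difference among called genes without overlap, the 5 earliest and 5 latest measured on all arrays, and a list of 21 genes (20 measured). Other genes called different, and the stretches within clusters, were added after their values were seen. Alternatives were other background correction, loess, centring, scaling, spot and probe filters, probe summaries, cluster gaps, leaving out each array and a replicate block; dropping ratios set to 0 was added after seeing the data. The number of arrays limits the precision.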

Additional observations from a re-analysis of the deposited data

Results flagged for a closer look

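Of 55 sets of 4 U2OS values examined (the ZNF median relative to the rest of the chromosome, the 11 clusters and the named genes), 2 had an array apart from the other 3 by Dixon's 95% criterion, a share that chance alone gives in about 1 in 20 sets. For ZNF792 it was automated 1, at 2.19, while the others lay at 0.79, 0.88 and 1.01. For ZNF180 it was automated 2, at 1.50, while the others lay at 1.92, 1.93 and 1.99.

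The cluster from ZNF175 to ZNF331 was above the array median on all 3 K562 arrays and below it on all 4 U2OS arrays, with a difference of 1.19. The same held for the cluster from ZNF628 to ZNF71, with a difference of 0.72. These differences between the lines over the genes of a cluster were not tested.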

How the results depend on the processing

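No called gene among those named by the rule changed sign in the alternatives run for it; other genes were not rerun singly. The U2OS median of the ZNF genes relative to the rest of the chromosome was -0.61 with normexp correction, -0.50 without correction, -0.61 with loess and -1.37 with at least 2 probes per gene. Genes called earlier in K562 numbered 12, 8 and 13 with normexp, no correction and loess, 6 with dim probes dropped (which leaves 85 of the 214 genes to test), 16 with probes on both designs and 19 on the 6 larger arrays. Genes called later in K562 numbered 1 without correction, 5 with loess, 2 centred on chromosome 19, 1 with dim probes dropped, and 6 with probes on both designs or on the 6 larger arrays. Early calls in K562 numbered 40 with normexp, 31 without correction, 10 centred on chromosome 19, 8 with dim probes dropped and 27 with probes on both designs; late calls in K562 numbered 10 with dim probes dropped. In U2OS, late calls numbered 128 centred on chromosome 19 and 29 with dim probes dropped, and early calls 9, 7, 32 (at least 2 probes) and 34 (probes on both designs). On automated arrays 34 genes were later and 25 earlier with normexp, 32 and 28 without correction, 31 and 27 with loess (27.6%, 28.0% and 27.1% of the ZNF genes, beside 35.2%, 32.4% and 34.0% of all genes), and 16 later with dim probes dropped (18.8% beside 18.9%); the cause was not tested. The earlier share of all called genes was 45.7% in the analysis as reported, 34.9% with normexp and 61.3% centred on chromosome 19.

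Leaving out 1 array gave 28 to 57 late and 37 to 69 early calls in K562, 70 to 88 late and 48 to 57 early in U2OS, 16 to 24 genes earlier and 4 to 10 later in K562, and medians relative to the rest of -0.64 to -0.29 in K562 and -1.21 to -1.01 in U2OS. The manual and automated arrays share replicate numbers, but these do not pair them (correlation of deviations 0.02); the replicate block gave 0 calls in each direction, as did the fit without it.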
